A study of Homo sapiens with 4 samples.

Results

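The mature miRNAs of the imprinted DLK1-DIO3 domain on human chromosome 14 were examined in K562 cells with and without knockdown of ERH. Members were taken by miRNA number, whatever the letter or arm, from 45 numbers assigned to the domain. They came to 78 of the 2366 human miRNA rows of the count tables. Of the 45 numbers, 44 had a row. miR-544a is not analysed here, and other arms without a row were also not used here. The rule uses miRNA numbers and no measured value.

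K562 is a human cell line from a chronic myeloid leukaemia, with erythroid features. All cells carried dCas9-KRAB, a Cas9 that cannot cut but brings the KRAB repressor to the gene matched by its guide RNA, in doxycycline-inducible polyclonal lines with guide RNA 1 or guide RNA 2 against ERH. ERH is a small protein that binds the Microprocessor, the nuclease complex that cuts miRNA hairpins out of longer transcripts. ERH knockdown cells had 0.05 µg/ml doxycycline for 5 days, and control cells of the same lines had none, so that each group had 2 libraries. After knockdown there were 2227374 and 2393565 human miRNA reads, and in controls 1430434 and 2476700. ERH itself was not measured in these libraries, and doxycycline without an ERH guide RNA is not analysed here, so effects of the drug and of the knockdown cannot be told apart. The labels do not say that libraries of a group came from separate cultures beyond the guide RNA, so p-values measure only the spread between these libraries.

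The DLK1-DIO3 domain carries protein-coding genes expressed from the paternal chromosome (DLK1, RTL1, DIO3) and noncoding RNAs expressed from the maternal one, among them MEG3, MEG8, MEG9 and the miRNAs. The miRNAs are known from embryo, placenta and brain. Many of their hairpins resemble each other and lie close together, so that a single long transcript can hold many of them. The comparison asks whether miRNAs of such a cluster depend on ERH, which can be read only where they are present.

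The cluster was nearly silent in these cells. All 78 rows together held 100 of 8528073 reads, or 0.00117% of the reads from 3.3% of the rows. No row had more than 5 reads in any library, and none was present in all 4 libraries. Summed over the members, knockdown and control libraries overlapped in CPM (counts scaled to 1000000 human miRNA reads), and no change of the cluster with ERH knockdown was detectable at this depth.

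The members with the most reads over all 4 libraries are shown first, because the little signal that exists rests on them, with the seed (bases 2 to 8, which pair with target RNAs) in capitals. The rule was the 10 rows with the most reads, and ties at 3 reads made them 12. Sequences are those of RefSeq (GRCh38.p14), where 77 of the 78 rows matched by name. miR-668-3p had no match there.
miR-369-3p: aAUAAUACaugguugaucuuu
miR-127-3p: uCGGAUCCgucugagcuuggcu
miR-136-5p: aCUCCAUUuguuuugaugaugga
miR-381-3p: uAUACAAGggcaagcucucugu
miR-655-3p: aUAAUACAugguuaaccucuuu
miR-299-5p: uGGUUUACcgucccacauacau
miR-376c-3p: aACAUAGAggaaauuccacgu
miR-377-3p: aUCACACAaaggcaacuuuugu
miR-493-5p: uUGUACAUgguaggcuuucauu
miR-431-5p: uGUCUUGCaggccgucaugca
miR-494-3p: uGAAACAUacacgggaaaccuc
miR-654-5p: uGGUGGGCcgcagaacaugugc

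The 12 seeds are all different. The seed letters of miR-369-3p, AUAAUAC, stand at bases 1 to 7 of miR-655-3p, so these 2 miRNAs carry the same letters shifted by 1 base. Across the 77 members with a sequence there were 69 seeds, of which 8 were shared by a pair of members, 16 members in all. Among the 12, miR-381-3p shared its seed with miR-300 and miR-654-5p shared its seed with miR-541-3p, and neither partner had a read in any library. These partners are shown for comparison.
miR-300: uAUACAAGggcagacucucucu
miR-541-3p: uGGUGGGCacagaaucuggacu

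A near-identical sequence can take another miRNA's reads, and how the authors assigned such reads is not given in the sources used here. Within the cluster, 10 members lay within 3 single-base edits of another member, among them miR-381-3p and miR-300 (3 edits) and miR-379-3p and miR-411-3p (2 edits). Reads of those rows are therefore uncertain between the partners. Toward the rest of the table, the closest human miRNA was 5 edits away from any member, and 6 to 9 edits away from the 12 shown above.

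On GRCh38 the rows with a match came from 50 hairpin genes, all on the plus strand, between positions 100852390 and 101066801 of chromosome 14 (GENCODE 29), a stretch of 214.4 kb. They fall into a group of 10 hairpins from MIR770 to MIR370 (100852390-100911213), named here for miR-127 and miR-136, and a group of 40 hairpins from MIR379 to MIR656 (101022066-101066801), with 110.9 kb between them. Of the first group, 5 hairpins lie opposite an exon of RTL1, a gene on the minus strand, 1 lies in an exon of MEG3 and 1, MIR370, in the body of MEG8. In the second group, 13 lie in the body of MEG8, 5 in MIR381HG and 6 in MEG9, all in introns except 1 hairpin in MEG9 that overlaps an exon.

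Detection was counted first, as rows with at least 1 read. In knockdown libraries, 19 and 13 of the 78 rows were detected (24.4% and 16.7%), and in controls 12 and 15 (15.4% and 19.2%). Of all 2366 human rows, 42.4% and 41.4% were detected after knockdown and 36.1% and 39.6% in controls. The members' share was below that of the whole table in each of the 4 libraries, a difference that was not tested. Brought to the depth of the shallowest library, the expected numbers of detected members were 14.4 and 9.37 after knockdown and 12 and 9.85 in controls, so the groups overlapped with and without that adjustment.

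Over all libraries, 33 rows from 26 of 48 hairpin names had a read and 45 rows had none. The share of members without a read was 57.7%, against 47.5% of all human rows. Of the 33 rows, 16 were seen in 1 library, 8 in 2 and 9 in 3. A count of 0 allows up to 3 reads, which is 1.35 and 1.25 CPM in the knockdown libraries and 2.10 and 1.21 in the controls, for counting error only, since the labels name no molecular identifiers. Just 4 of the 312 counts (78 rows in 4 libraries) exceeded 3 reads. Those 4 were in knockdown libraries, while the library with the most reads was a control. Of all 2366 human rows, 652 and 647 exceeded 3 reads after knockdown and 499 and 563 in controls. The whole table thus leaned the same way, and the 4 counts are not read as particular to the cluster.

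**Figure D1:**
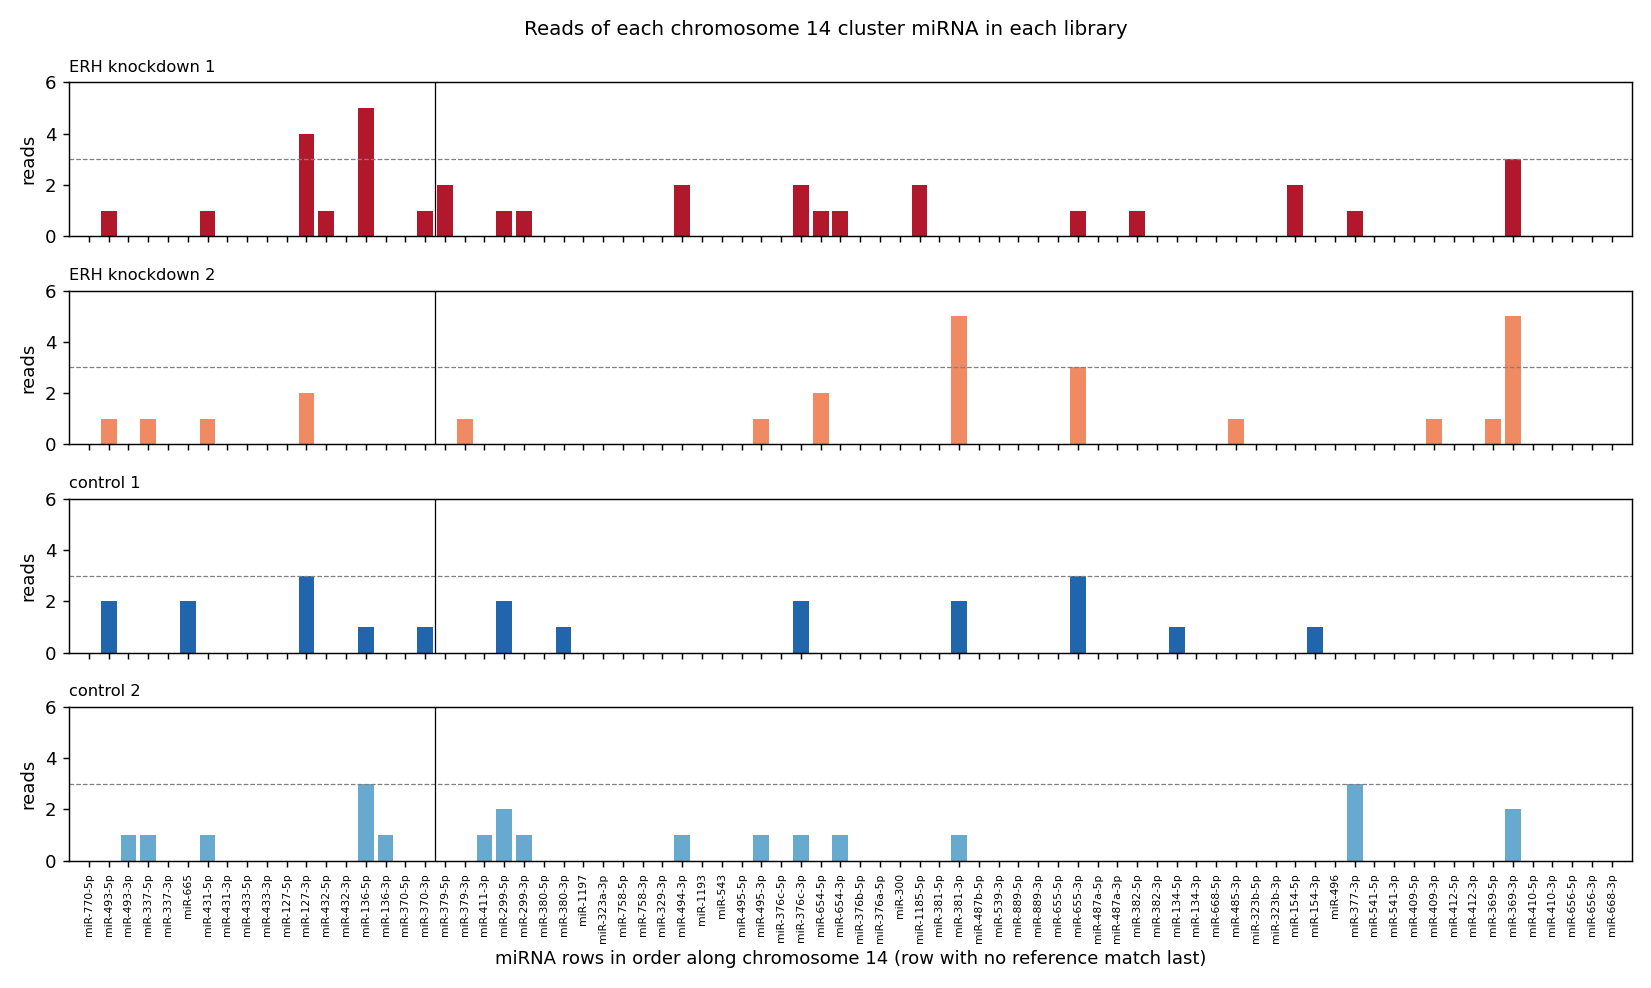
Bars give the raw reads (vertical axis) of each of the 78 miRNAs, in order along chromosome 14 (horizontal axis), in the 2 knockdown and 2 control libraries; the dashed line marks 3 reads and the vertical line parts the miR-127/miR-136 group (left) from the miR-379/miR-656 group (right). The highest bars reach 5 reads, and most positions are empty in every library.

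Most rows read in 1 library of a group were not read in the other. The knockdown libraries shared 6 rows, which is 31.6% of the 19 rows with guide RNA 1 and 46.2% of the 13 with guide RNA 2. The controls shared 4 rows, which is 33.3% of 12 and 26.7% of 15. Between the groups, 16 rows were read in at least 1 library of each, or 61.5% of the 26 rows read after knockdown and 69.6% of the 23 read in controls. The same overlap was not counted over all human rows or over rows of like counts. It is therefore not read as particular to the cluster.

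Summed over the 78 rows, the knockdown libraries held 33 and 25 reads and the controls 21 and 21. As CPM this is 14.8 (95% exact binomial interval 10.2 to 20.8) and 10.4 (6.76 to 15.4) after knockdown. In controls it is 14.7 (9.09 to 22.4) and 8.48 (5.249 to 12.96). With guide RNA 1 the knockdown and control values were nearly equal, and the spread between libraries of a group was larger than the difference between the groups. The group values were 12.6 ± 3.10 after knockdown and 11.6 ± 4.39 in controls (SD, n = 2).

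The pooled ratio of knockdown to control was 1.17, with a 95% interval of 0.772 to 1.78 that covers counting error only. With library totals, a rise of the whole cluster beyond that upper bound, or a fall beyond the lower one, is outside counting error. Smaller changes in either direction are not. The bounds were not computed for other scalings. The sign depends on how libraries are scaled. On the log2 scale the ratio of group means was 0.13 with library totals, -0.31 with TMM effective library sizes (the scaling edgeR uses to hold the bulk of miRNAs level), -0.03 without miR-369-3p and 0.40 per spike-in read. Per 1000 reads of the added spike-in RNAs, the sum was 0.557 and 0.522 after knockdown and 0.455 and 0.361 in controls, the only scaling of the 3 in which the groups did not overlap. Across the whole table, spike-in scaling put the median fold change 0.68 higher on the log2 scale than TMM did. Library size alone put it 0.44 higher than TMM, at 0.50 for the 464 tested miRNAs. The ratio of 1.17 with library totals is therefore not a rise beyond that of the median tested miRNA. Leaving out 1 library moved the log2 ratio of library totals between -0.22 (without control replicate 2) and 0.57 (without control replicate 1), and it was -0.15 without knockdown replicate 1 and 0.36 without knockdown replicate 2.

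**Figure D2:**
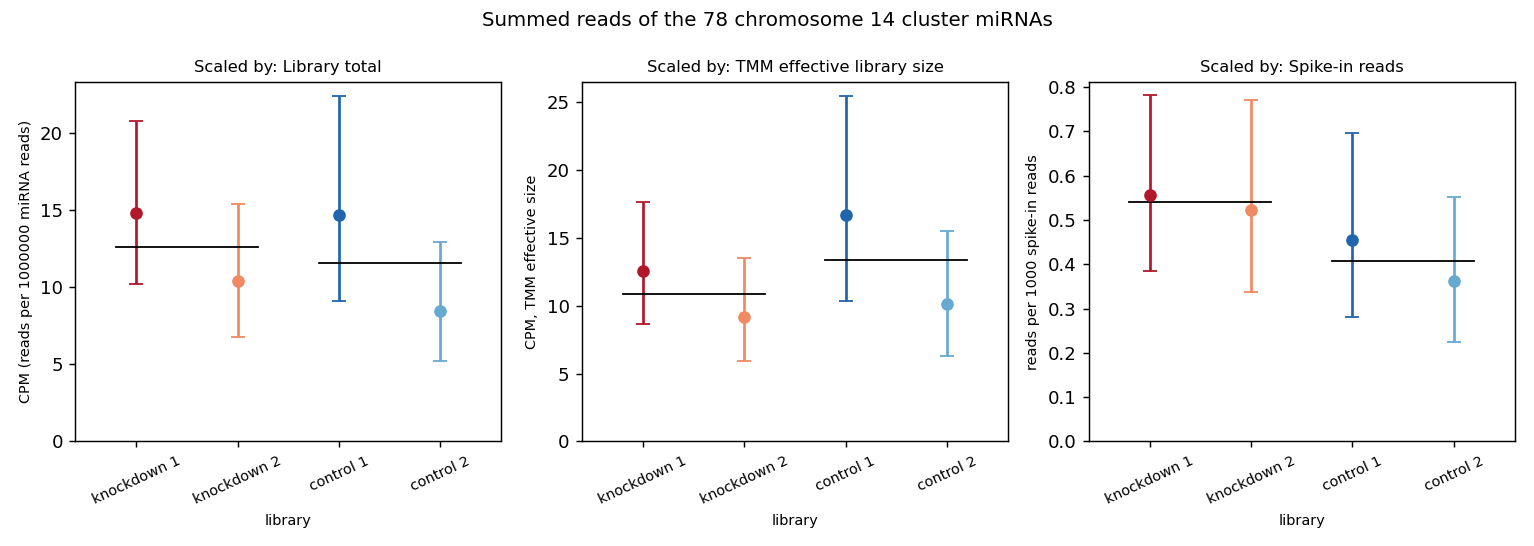
Points give the summed reads of the 78 miRNAs in each library as CPM (left), as CPM of the TMM effective library size (middle) and per 1000 spike-in reads (right); bars are 95% exact binomial counting intervals, scaled alike, and black lines are group means. The intervals of all 4 libraries overlap in each panel, and the higher group mean changes between the panels.

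No member passed the low-count filter, so 0 of the 464 tested miRNAs belonged to the cluster. In that test 236 miRNAs were called, or 50.9% (edgeR quasi-likelihood test, Benjamini-Hochberg adjusted p under 0.05). Without the filter, all 33 rows with a read could be fitted and 0 were called, against 19.1% of the 1242 rows in that fit. Of the 33, 0 had an unadjusted p under 0.05, and the lowest adjusted p was 0.459, for miR-299-5p. DESeq2 without independent filtering also called 0 of 33, with 0 at an unadjusted p under 0.05, against 7.97% of 1242 rows, and with its independent filtering, where 30.8% of 399 rows were called, it gave the members no adjusted p. The edgeR estimates were very wide, with a SE of 1.10 to 3.54 on the log2 scale and a median SE of 2.79, so a p above the threshold does not show that a member was unchanged.

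In CPM, both knockdown libraries lay above both controls for 3 of the 33 rows, namely miR-369-3p, miR-431-5p and miR-654-5p, and below both for 1, miR-299-5p. Of all 1242 rows with a read, 42.4% lay above and 8.45% below in this way. The members' shares are therefore not above the background in either direction. However, 16 of the 33 rows were read in just 1 library, where neither order can occur. Rows of like counts were not compared, so the low shares are not read as particular to the cluster.

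The miRNAs of the miR-127/miR-136 group are taken first. Those transcribed opposite RTL1, such as miR-127, miR-136 and miR-431, match the RTL1 transcript perfectly because they come from its opposite strand, and are known in mouse to direct its cleavage. miR-127-3p (chr14:100883035-100883056) had 4 and 2 reads after knockdown against 3 and 0 in controls. miR-136-5p (chr14:100884716-100884738) had 5 and 0 reads after knockdown against 1 and 3 in controls. The groups overlapped for both, and in each group the 2 libraries differed as much as the groups did. The ratio of knockdown to control, from pooled reads scaled by library totals, was 1.69 for miR-127-3p (counting interval 0.361 to 10.5) and 1.06 for miR-136-5p (0.227 to 5.33).

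miR-431-5p (chr14:100881026-100881046) had 1 and 1 reads after knockdown against 0 and 1 in controls, a difference of a single read. miR-493-5p (chr14:100869075-100869096), outside RTL1 and MEG3 on the map, had 1 and 1 reads after knockdown against 2 and 0 in controls. For both, the pooled reads of each group were at or under 3, so no fold is given. From hairpins opposite RTL1, 5 of 10 rows had a read, with 11 and 3 reads after knockdown against 4 and 5 in controls. The whole group of 18 rows had 10 rows with a read, with 13 and 5 reads after knockdown against 9 and 7 in controls. As CPM, this is 5.84 and 2.09 after knockdown and 6.29 and 2.83 in controls, so the groups overlapped and both libraries with guide RNA 1 lay above both with guide RNA 2. The pooled ratio was 0.951 (0.458 to 1.99).

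In the miR-379/miR-656 group, the large block of duplicated hairpins known from neurons, 23 of 60 rows had a read. It held 20 and 20 reads after knockdown against 12 and 14 in controls. As CPM, this is 8.98 and 8.36 after knockdown and 8.39 and 5.653 in controls, so the groups overlapped, with a pooled ratio of 1.301 (0.775 to 2.22). Whether the 2 groups of hairpins differ in their response was not tested.

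miR-369-3p (chr14:101065641-101065661), from an intron of MEG9 near the far end of the cluster, had the most reads of any member. It had 3 and 5 reads after knockdown against 0 and 2 in controls. Both knockdown libraries were above both controls, also in CPM, but the ratio of 3.38 has a counting interval of 0.675 to 32.7, and the unfiltered edgeR fit gave 1.25 ± 1.15 on the log2 scale (SE, adjusted p = 0.648). miR-655-3p (chr14:101049610-101049631), which carries nearly the same seed letters, had 1 and 3 reads after knockdown against 3 and 0 in controls. The pair therefore did not show the same order of libraries.

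miR-381-3p (chr14:101045968-101045989) had 0 and 5 reads after knockdown against 2 and 1 in controls. Its hairpin and that of miR-655 both lie in introns of MIR381HG, and the 5 reads in 1 knockdown library were its highest count while the other knockdown library had none. miR-299-5p (chr14:101023800-101023821), from an intron of MEG8, had 1 and 0 reads after knockdown against 2 and 2 in controls. It was the one member below both controls in both knockdown libraries, at a ratio of pooled reads, 1 against 4, of 0.211 with a counting interval of 0.00429 to 2.14 (adjusted p = 0.459, unfiltered edgeR fit). miR-377-3p (chr14:101062094-101062115) had 1 and 0 reads after knockdown against 0 and 3 in controls.

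miR-376c-3p (chr14:101039732-101039752) had 2 and 0 reads after knockdown against 2 and 1 in controls. miR-494-3p (chr14:101029681-101029702), from an intron of MEG8, had 2 and 0 reads after knockdown against 0 and 1 in controls. The CPM of miR-376c-3p was 0.898 and 0 after knockdown against 1.40 and 0.404 in controls, so its groups overlapped. For miR-494-3p the library with guide RNA 1 was higher after knockdown and that with guide RNA 2 was lower. miR-654-5p (chr14:101040234-101040255) had 1 and 2 reads after knockdown against 0 and 0 in controls, and with pooled reads of both groups at or under 3 no fold is given.

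The other 21 rows with a read had 1 or 2 reads over all libraries, 30 reads in sum. Among them, miR-134-5p, a neuronal miRNA that limits the growth of dendritic spines, had 1 read in 1 control library. miR-370-3p had 1 read with guide RNA 1 in each group, and miR-665 had 2 reads in 1 control. These 3 were chosen after their values were seen. The 12 members with the most reads held 70 of the 100.

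Both arms of a hairpin are released together, and 1 arm usually dominates once it is loaded into Argonaute. For 30 hairpin names both arms had a row, and 10 of these had no read from either. Only the 5p arm was read in 5, only the 3p arm in 8, and both in 7. miR-369 gave 10 reads of the 3p arm and 1 of the 5p arm, miR-136 gave 9 of the 5p arm and 1 of the 3p arm, and miR-127 gave 9 of the 3p arm and 0 of the 5p arm. Summed over rows, 5p arms had 17 and 6 reads after knockdown against 6 and 7 in controls, and 3p arms had 16 and 19 after knockdown and 13 and 14 in controls. The high 5p sum came from 1 knockdown library, and no pair of arms reached 10 reads in every library, so no arm ratio was compared.

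The low level was set beside other lists in the same libraries. Erythroid miRNAs (miR-144, miR-451a, miR-486, miR-210) summed to 54280 and 52340 CPM after knockdown and 41400 and 40580 in controls. Myeloid miR-223 and miR-142 summed to 102200 and 102800 after knockdown and 111000 and 110600 in controls. Both lists were thus well read in these libraries, and no reference profile of K562 was compared. The erythroid sum hides rows that moved apart. Of its 7 tested rows, 2 were called higher (miR-144-3p and miR-144-5p) and 2 lower (miR-451a and miR-486-3p). All 4 myeloid rows were called lower. Of the 464 tested miRNAs, 50.9% were called in either direction. Chromosome 14 miRNAs outside the rule for members (miR-342, miR-345, miR-2392, miR-1247) summed to 1639 and 1598 after knockdown and 1258 and 1232 in controls. Nearly all of these reads came from miR-342 and miR-345. Their 3 tested rows were not called in edgeR: miR-342-3p stood at -0.05 ± 0.06, miR-342-5p at -0.03 ± 0.20 and miR-345-5p at -0.16 ± 0.11 (log2, SE; adjusted p = 0.554, 0.896 and 0.243). miR-2392 and both arms of miR-1247, the latter beside DIO3, were at 0 in all 4 libraries.

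Among miRNAs of tissues that a K562 culture should not hold, the summed CPM were 2.25 and 0.836 after knockdown and 0.699 and 1.62 in controls for liver miR-122, and 4.04 and 2.51 against 0.699 and 0.404 for muscle miR-1, miR-133a and miR-206. The pluripotency miRNAs miR-302a, miR-302c, miR-302d and miR-367 had 1 read in each library with guide RNA 1 and 0 in the others, with 6 of 8 rows including miR-302b at 0 throughout. For miR-302a, miR-302b and miR-133a just the 5p arm had a row, so their 3p arms are not analysed here. The single rows of the chromosome 14 cluster, at 0 to 5 reads, lay in the same range as miR-122-5p with 5 and 2 reads after knockdown against 1 and 4 in controls. Other lists of foreign cell types had higher sums, which came mostly from 1 or a few members. Mesenchymal or smooth-muscle miRNAs summed to 669 to 1158 CPM, almost all of it miR-145-5p, while miR-214-3p had 2 reads in 1 library. Neural miRNAs summed to 829 to 1006, mostly from miR-9 and miR-219a, while miR-124-3p had 1 read in 1 library. Epithelial miRNAs summed to 84.79 to 147.3 CPM, mostly from miR-200c-3p and miR-141-3p. The part that reads from other cells or other libraries play in the chromosome 14 counts was not tested. In bulk RNA, fewer expressing cells and less RNA per cell cannot be told apart.

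**Figure D3:**
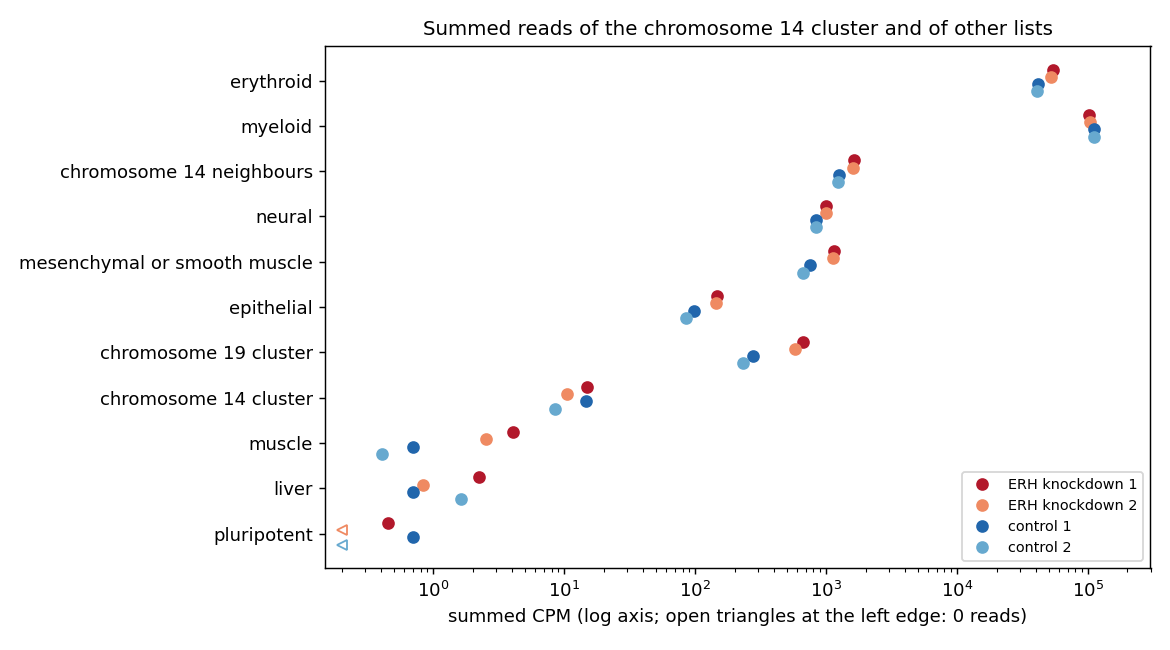
Points give the summed CPM (horizontal log axis) of each list (vertical axis) in each library, and open triangles stand for 0 reads. The summed CPM of the chromosome 14 cluster lies between 8.48 and 14.8, below the chromosome 19 cluster in every library and above the muscle, liver and pluripotency lists. These sums are not levels per row. The chromosome 14 sum is over 78 rows, against 40 for chromosome 19, 4 for muscle, 2 for liver and 8 for pluripotency.

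The most similar locus is the miRNA cluster of chromosome 19, also imprinted and made of many duplicated hairpins, known from placenta. Its 40 rows held 1482 and 1379 reads after knockdown against 396 and 572 in controls, and 39 of them had a read. There were 44.9 and 55.2 reads of the chromosome 19 cluster for each read of the chromosome 14 cluster after knockdown, and 18.9 and 27.2 in controls. In each library the binomial intervals of the 2 clusters' levels were far apart (for example 632 to 700 against 10.2 to 20.8 CPM with knockdown guide RNA 1). With library totals, the pooled knockdown to control ratio was 2.50 for chromosome 19 (2.32 to 2.69) and 1.17 for chromosome 14 (0.772 to 1.78). These counting intervals did not overlap. With that scaling the median of the tested miRNAs was itself at 0.50 on the log2 scale. In the fit with TMM, 27 chromosome 19 rows were tested, of which 17 were called higher and 0 lower, with a median of 0.89 on the log2 scale. Over all 464 tested miRNAs of that fit the median was 0.06 and 25.6% were called higher. A row can pass the low-count filter through the 2 knockdown libraries alone. At least 10 reads were reached by 28 and 29 chromosome 19 rows after knockdown, against 15 and 22 in controls. The part of the filter in the 17 calls and the median was not tested. Spread between libraries is not in these intervals, and with 2 libraries per group the difference between the clusters was not tested further.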

How the data were processed

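Small RNA of 4 K562 libraries (2 ERH knockdown, 2 control) was gel-purified and sequenced, per the labels. The authors deposited raw read counts, 1 whole number per mature miRNA and library, with no header. How reads were trimmed, aligned and shared between similar miRNAs, and with which annotation and build, is not given in the sources used here. Of 2368 rows per table, 2 are spike-in RNAs by name, left out of totals and tests.

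The rule for members uses no measured value, but the cluster and the lists were chosen with earlier results of these data known. Counts were filtered (filterByExpr, minimum count 10, minimum total 15), scaled with TMM and tested with the quasi-likelihood test of edgeR 4.0.16 in R 4.3.3, knockdown against control, without a block. Because no member passed the filter, the unfiltered fit is given beside it. The alternative tool was DESeq2 1.42.0. CPM values here are reads of a row per 1000000 reads of human miRNA rows. Pooled ratios carry exact conditional binomial intervals (95%, counting error only).

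Named members were to be all that passed the filter and, of the rest, the 10 with the most reads. Replicate numbers are guide RNAs, each with its own polyclonal line, so they pair libraries by their origin. Deviations from the group means correlated at -0.11 across tested miRNAs between libraries of 1 guide RNA. The 2 libraries of a group differed beyond counting noise (chi-square over its degrees of freedom, 3.93 in knockdown and 10.1 in control). Each was counted as a replicate in the test. The 2 also differ in guide RNA and line, so this spread does not show that they are independent replicates of 1 condition. The alternatives are given in the closing section.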

Additional observations from a re-analysis of the deposited data

How the results depend on the processing

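The count of 0 called members held in all 14 alternatives, but members entered the test in just 2 of them, so the other 12 say nothing of the members. The count of called miRNAs in the whole table was 236. It was 230 with guide RNA as a replicate block, 241 with the crossed pairing (chosen after seeing the data) and 150 with DESeq2 (48 up, 102 down), and 123 and 99 with unfiltered DESeq2 with and without independent filtering (both chosen after seeing the data). Leaving out 1 library gave 117 (without knockdown replicate 1) to 195, with 140 without control replicate 2. The split was 119 up and 117 down with TMM, 108 and 128 with RLE size factors, 273 and 41 with library size alone and 186 and 8 with spike-ins. For the summed reads of the cluster, the log2 ratio of 0.13 became -0.31 with TMM sizes and 0.40 per spike-in read, and ran from -0.22 to 0.57 when 1 library was left out. These values lie within the counting interval of the pooled ratio, -0.37 to 0.83 on the log2 scale. That interval was computed with library totals and does not cover the choice of scaling or of libraries. The mean within guide RNAs, which respects the pairing, was 0.16 (0.01 and 0.30). With a minimum of 10 reads, the mean number of detected members fell from 16 to 0 after knockdown and from 13.5 to 0 in controls. Depth limits what can be said of single members: 1 read is worth 0.404 to 0.699 CPM.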
